A study of Mus musculus with 16 samples.

Results

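The nuclear genes for subunits of the mitochondrial respiratory chain and the ATP synthase were followed in 16 RNA-seq libraries made from mouse pre-B cells, precursors of B lymphocytes that arise in the bone marrow. Genes were taken by symbol (Ndufa, Ndufb, Ndufc, Ndufs, Ndufv, Sdha to Sdhd, Uqcr, Cox4 to Cox8 and Atp5), and 92 of the 23279 symbols in the expression table matched. By textbook assignment 36 of them belong to complex I, 4 to complex II, 8 to complex III, 20 to complex IV and 15 to complex V. The other 9 matched by name and are not subunits, namely the complex I assembly factors Ndufaf1 to Ndufaf7 and the genes Atp5s and Atp5sl. The groups crossed the fusion kinase BCR-ABL1 with SHP2, the phosphatase encoded by Ptpn11, and each held 4 libraries. In the labels' genotype notation these were BCR-ABL NULL (-/-) with SHP2 WT (+/+), BCR-ABL NULL (-/-) with SHP2 NULL (-/-), BCR-ABL WT (+/+) with SHP2 WT (+/+), and BCR-ABL WT (+/+) with SHP2 NULL (-/-). How the null allele was made, how BCR-ABL1 was introduced, and the strain, sex and age of the mice were not given in the sources used here. Nor is it stated whether the libraries of a group were separate animals or cultures, so the p-values measure a spread between libraries that may be technical.

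The respiratory chain sits in the inner mitochondrial membrane. Complex I takes electrons from NADH and complex II from succinate, both pass them through ubiquinone to complex III, and cytochrome c carries them to complex IV, where oxygen is reduced. Complexes I, III and IV pump protons, and complex V, the ATP synthase, lets them back to make ATP. Most subunits are encoded in the nucleus, and a few complex IV subunits exist as a common isoform and an isoform restricted to muscle, lung or testis. The core subunits encoded by mitochondrial DNA are not analysed here.

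Promoters of these genes are known for sites of NRF1, of the ETS factor GABPA (also called NRF2) and of YY1. RefSeq promoter windows (GRCm38.p6, 250 bases before to 50 after the gene start) were matched by symbol for 73 of the 92 genes. The letters CGCNTGCG (the core of the NRF1 motif), on either strand, stood in 28 of the 73 (38.4%), against 9.22% of all 27025 promoters in the RefSeq set and 21.5% of the 7632 promoters of genes tested here. The letters CCGGAAG (GABPA) stood in 17 (23.3%, against 9.93% and 23.0%) and AAGATGGC (YY1) in 9 (12.3%, against 3.19% and 6.05%). Motifs were counted separately and could overlap. The 250 bases before the start are shown for a tissue-restricted and a common complex IV isoform (Cox7a1 and Cox7a2), for another common isoform (Cox6a1) and for Ndufs5, the complex I gene whose level varied most. Capitals mark matches to the NRF1 or GABPA letters on either strand.
Cox7a1, chr7:30183921-30184170, plus strand: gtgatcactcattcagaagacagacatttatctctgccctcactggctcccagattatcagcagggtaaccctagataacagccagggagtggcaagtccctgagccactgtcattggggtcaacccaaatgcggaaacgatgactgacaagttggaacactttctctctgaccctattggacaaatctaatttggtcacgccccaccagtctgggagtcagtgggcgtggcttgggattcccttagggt
Cox7a2, chr9:79759854-79760103, minus strand: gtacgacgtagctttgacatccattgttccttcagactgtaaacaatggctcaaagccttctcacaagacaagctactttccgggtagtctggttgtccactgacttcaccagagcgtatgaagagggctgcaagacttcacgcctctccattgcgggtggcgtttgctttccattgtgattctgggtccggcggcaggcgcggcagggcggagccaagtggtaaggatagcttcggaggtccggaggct
Cox6a1, chr5:115348959-115349208, minus strand: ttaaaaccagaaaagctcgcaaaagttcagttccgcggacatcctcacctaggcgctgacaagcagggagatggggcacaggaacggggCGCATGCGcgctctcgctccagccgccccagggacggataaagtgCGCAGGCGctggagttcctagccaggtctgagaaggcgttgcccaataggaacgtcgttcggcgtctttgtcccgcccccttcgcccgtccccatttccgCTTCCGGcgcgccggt
Ndufs5, chr4:123718187-123718436, minus strand: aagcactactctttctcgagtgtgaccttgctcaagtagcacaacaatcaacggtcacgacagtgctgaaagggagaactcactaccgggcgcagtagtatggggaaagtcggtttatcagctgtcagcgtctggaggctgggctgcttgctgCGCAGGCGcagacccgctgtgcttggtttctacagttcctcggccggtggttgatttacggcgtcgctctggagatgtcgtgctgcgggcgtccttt
In this window Cox6a1 held the NRF1 letters starting 161 and 116 bases before the start and the GABPA letters 16 bases before it, and Ndufs5 held the NRF1 letters 97 bases before it. None of these letters stood in the Cox7a1 and Cox7a2 windows, which held 4 and 14 CpG dinucleotides, against 26 for Cox6a1 and 18 for Ndufs5.

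Ptpn11 read 15.7 to 18.0 FPKM (fragments per kilobase, divided by the number of fragments mapped in the library) in the 8 libraries labelled SHP2 wild type and 2.87 to 7.43 in the 8 labelled null. All 13 pre-B markers examined (Pax5, Vpreb1 and others) were present, with a summed level of 2476 to 3138 FPKM per library. Of 9 myeloid markers 5 reached 1 FPKM in some library. Their summed level ran from 9.30 to 32.4 FPKM in wild-type cells without BCR-ABL1, from 5.87 to 13.8 and from 5.19 to 9.24 FPKM in wild-type and null cells with it, and from 8.37 to 430 FPKM in null cells without it, where Lyz2 alone read 403 FPKM in replicate 2. Leaving that library out left the number of respiratory chain genes called unchanged in each comparison, at 0, 0, 0, 1 and 0. It moved the genes with a negative change from 60 to 48 of 86 on SHP2 loss without BCR-ABL1 (median log2 change from -0.05 to -0.02) and from 66 to 72 with BCR-ABL1 in null cells (from -0.08 to -0.12). T and NK, erythroid and stromal markers summed to at most 3.44, 0.924 and 0.232 FPKM. Relative depth could not be read from these values, and fewer cells of a type and less RNA per cell cannot be told apart in bulk RNA.

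In pre-B cells the subunit genes were abundantly transcribed, and complex V stood highest. FPKM is scaled to transcript length, and levels are set beside each other between genes on that basis only. The transcripts of these genes are short, with a median of 908 nt against 2909 nt over tested genes. How length and GC content bear on the order of the levels was not tested. The median over genes of the mean level in all 16 libraries was 224 FPKM for the 15 complex V genes and 171 FPKM for the 14 complex IV genes that passed the filter on low values (at least 1 FPKM in at least 4 libraries). It was 101 FPKM for complex III, 70.2 FPKM for complex II and 67.4 FPKM for complex I. The assembly factors and other non-subunits lay at a median of 7.04 FPKM. The highest subunit was Atp5b, the catalytic beta subunit of the ATP synthase, at 549 FPKM, and the lowest that passed the filter was Cox6a2, at 0.779 FPKM. In complex I the range ran from Ndufa11 (8.10 FPKM) to Ndufa3 (173 FPKM), and in complex III from Uqcrq (40.5 FPKM) to Uqcrh (298 FPKM). Complex II was the most even, from 49.7 FPKM for the membrane anchor Sdhc to 93.4 FPKM for the iron-sulfur subunit Sdhb. Of the 92 genes 86 passed the filter, among 10210 genes tested, and the 6 that did not were all tissue-restricted complex IV isoforms or relatives.

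The summed levels of all subunit genes overlapped between the 4 groups. Without BCR-ABL1 the mean sum was 10058 ± 979 FPKM (SD, n = 4) with SHP2 and 9727 ± 1279 FPKM in its absence. With BCR-ABL1 the wild-type mean was 10053 ± 1009 FPKM and the null mean 9198 ± 1101 FPKM, which was 91.5% of the wild-type mean. The total FPKM of these wild-type libraries was 389310, 362102, 443702 and 390284 in replicates 0 to 3. In the null libraries it was 348923, 355109, 393707 and 422732. The sums given here were not scaled to these totals, so the percentages of the wild-type mean include any difference in total FPKM. The share of the subunits in the total was not compared between groups. The subunit sums of single libraries ran from 8124 to 11621 FPKM, or 2.29% to 2.72% of all FPKM of a library. By complex, the SHP2-null mean with BCR-ABL1 was 90.7% (I), 93.4% (II), 92.1% (III), 90.8% (IV) and 92.2% (V) of the wild-type mean. Leaving out 1 library moved the complex I difference, -0.14 on the log2 scale, to -0.07 without wild-type replicate 2 and to -0.22 without null replicate 3. The complex III difference of -0.12 moved to -0.05 and -0.20 without the same libraries. The differences for complexes II, IV and V, at -0.10, -0.14 and -0.12, moved to -0.06, -0.07 and -0.06 without null replicate 1. They reached -0.15 and -0.18 for II and V without null replicate 3 and -0.21 for IV without wild-type replicate 1. The sums carry no test, because the genes were chosen with earlier results of these data known.

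**Figure D1:**
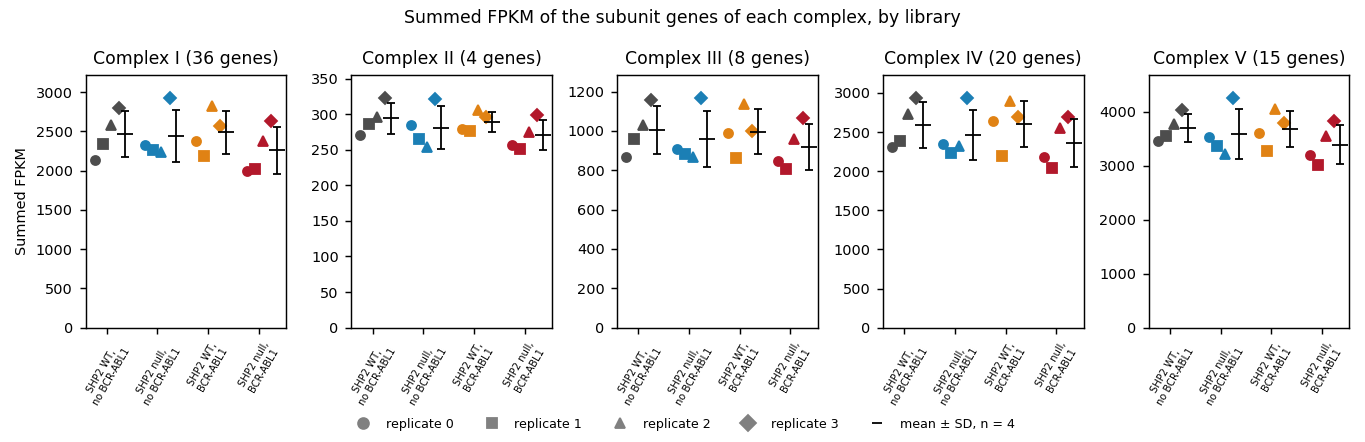
Summed FPKM (vertical axes, starting at 0) of the subunit genes of complexes I to V in the 4 groups (horizontal axes), with 1 symbol per library shaped by its replicate number and a black bar for the mean ± SD of 4 libraries. In each complex the 4 groups overlap, and for complex I the libraries run from 1998 to 2930 FPKM.

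Libraries differed more than groups did. Among the wild-type libraries carrying BCR-ABL1, replicate 2 held the highest subunit sum, at 11200 FPKM. In the other 3 groups the library with replicate number 3 was highest, at 11246, 11621 and 10500 FPKM. Of the 86 genes, 83, 83 and 82 lay above their own group mean in those 3 libraries with number 3 and 79 in that replicate 2, while the shares of all tested genes above their group mean were 58.6%, 56.3%, 61.4% and 48.7%. In the libraries with replicate number 1, 17, 9, 3 and 13 of the 86 lay above their group mean, against 52.1%, 42.8%, 42.8% and 39.4% of all tested genes. Low counts also stood under other numbers. Without BCR-ABL1 they were 11 in wild-type replicate 0 (52.0% of all genes) and 7 in null replicate 2 (41.5%). With BCR-ABL1 null replicate 0 had 20 (50.4%). A library's deviations went with the GC content of the transcripts to a varying degree: across 85 of the genes the Spearman correlation ran from -0.529 to 0.634 over the 16 libraries, and across 9603 tested genes from -0.485 to 0.551. Genes are not independent replicates, and the part of GC content in the differences between groups was not tested beyond the GC-corrected fits given with the limits.

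**Figure D2:**
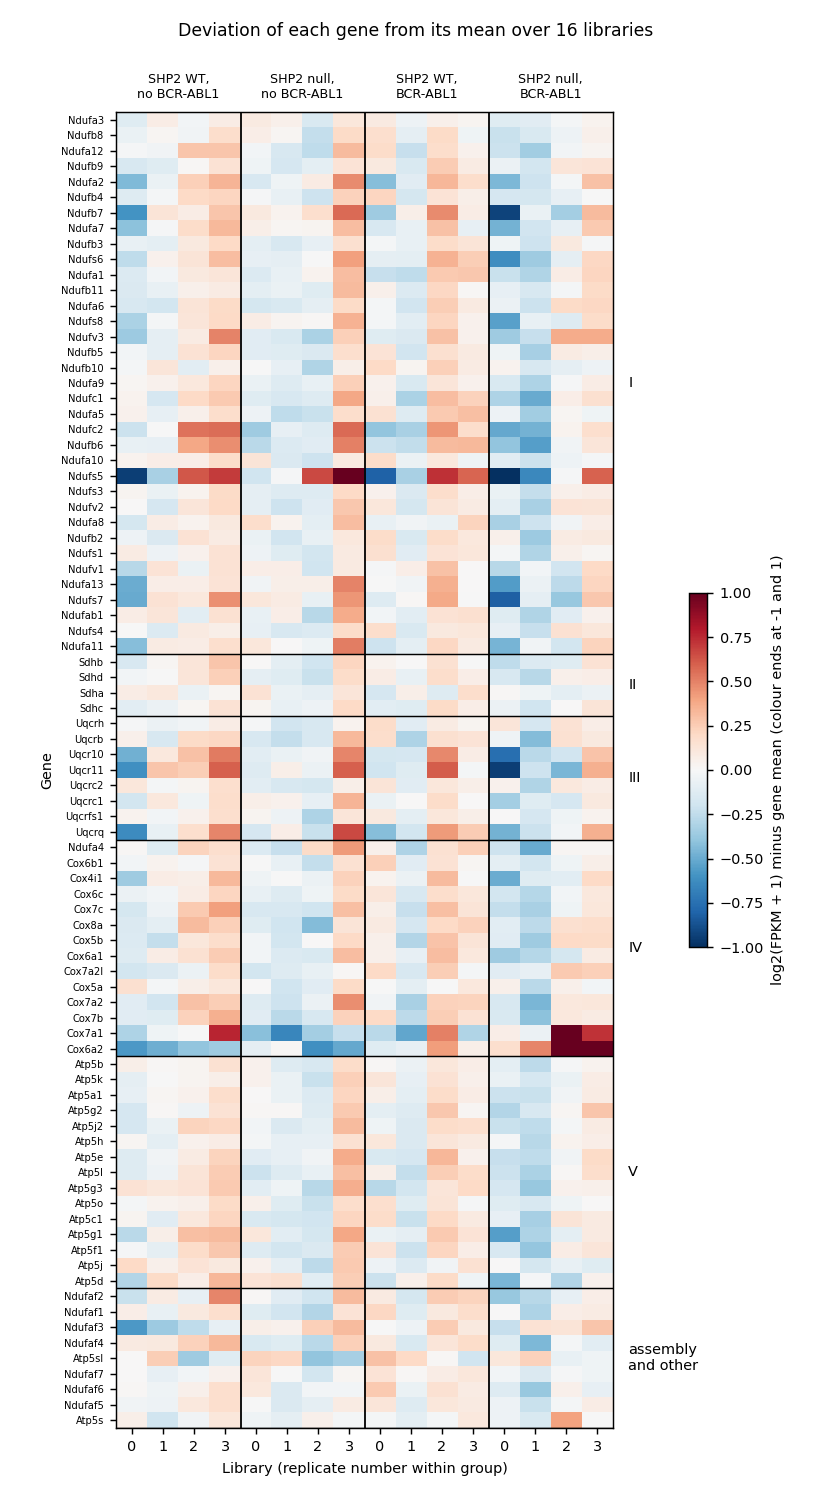
The rows are 85 of the 86 genes, grouped by complex and ordered by mean level within it, and each column is 1 library (replicate number on the horizontal axis) within its group. Colour gives log2(FPKM + 1) minus the gene's mean over 16 libraries, from blue (lower) to red (higher), so that whole columns such as SHP2-null replicate 3 without BCR-ABL1 stand out more than any group does.

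No subunit gene passed the test for loss of SHP2. With BCR-ABL1, 80 of 86 genes had a negative log2 change, small in size, with a median of -0.12 on the log2(FPKM + 1) scale. The median was -0.06 with quantile normalization, -0.07 without null replicate 1 with BCR-ABL1 and -0.19 without null replicate 3 with BCR-ABL1. Over all 10210 genes tested 57.3% were negative, with a median of -0.02. The fit was limma on all 16 libraries with Benjamini-Hochberg adjustment, and a call was an adjusted p below 0.05. By that rule 0 of 86 genes changed, with 0.313% of all genes called. At an unadjusted p below 0.05 there were 7 genes, or 8.14%, against 3.65% of all genes. This count depended on single libraries with BCR-ABL1. It was 1 of 86 without wild-type replicate 0 (313 of all 10198 genes) and 1 of 85 without null replicate 1 (371 of 10193). Without wild-type replicate 1 it was 11 of 86 (470 of 10197). With the replicate number as a block 0 genes were called (0.47% of all) and 17 stood at an unadjusted p below 0.05 (19.8%, against 8.32%). By complex the negative changes were 35 of 36 (I), 4 of 4 (II), 8 of 8 (III), 11 of 14 (IV) and 15 of 15 (V), with medians of -0.14, -0.09, -0.10, -0.13 and -0.12. With quantile normalization they were 31, 2, 6, 9 and 13. The count of negative changes stayed between 68 of 86 (quantile normalization) and 83 of 85 (without SHP2-null replicate 2 with BCR-ABL1) over 23 alternatives. For 83 of 86 genes the 95% interval of the change lay within 2-fold in either direction, and for 72 within 1.5-fold.

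Without BCR-ABL1, 60 of 86 genes had a negative change on SHP2 loss, with a median of -0.05, against 44.1% of all genes and a median of 0.02. The test called 0 genes (1.54% of all), with 2 at an unadjusted p below 0.05 (2.33%, against 16.1%). With the block it called 1, the assembly factor Ndufaf3 (5.75% of all), and 7 stood at an unadjusted p below 0.05 (8.14%, against 26.5%). Without SHP2 wild-type replicate 3 the count of negative changes was 44, and without SHP2-null replicate 3 it was 75. The median was -0.0095 and -0.14 in these fits, -0.10 without wild-type replicate 0, and -0.02 without null replicate 1. The 95% interval lay within 2-fold for 84 genes.

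For BCR-ABL1 the comparison was made in cells with and without SHP2. In SHP2 wild-type cells 48 of 86 genes had a positive change and the median was 0.01, against 59.8% of all genes and a median of 0.04. The test called 0 of the 86 (4.67% of all genes), with 2 at an unadjusted p below 0.05 (2.33%, against 19.1%), so the share below that value was smaller than among all genes. That direction did not hold under other scalings. The positive count was 24 with median-ratio scaling and 34 with quantile normalization, and leaving out wild-type replicate 3 or replicate 0 without BCR-ABL1 gave 12 or 63 negative changes, with the median between -0.05 and 0.07 over all alternatives. In SHP2-null cells 66 of 86 had a negative change, with a median of -0.08, against 52.4% of all genes and a median of -0.01. Without SHP2-null replicate 3 without BCR-ABL1 the negative count was 38, and with quantile normalization 38 changes were positive, with medians of 0.0048 and -0.02. The median was also -0.02 without null replicate 1 with BCR-ABL1, -0.05 without null replicate 0 with BCR-ABL1 and -0.12 without null replicate 3 with BCR-ABL1. Here limma called 1 gene, Cox6a2 (1.16%, against 1.26% of all genes), and 3 at an unadjusted p below 0.05 (3.49%, against 13.5%). Cox6a2 passed the filter mainly through the null libraries with BCR-ABL1, so with that filter it could be tested only because it was high there. With the replicate block limma called 3, namely Cox6a2, Cox7a1 and Ndufs5 (3.49%, against 5.27%), with 18 at an unadjusted p below 0.05 (20.9%, against 23.2%).

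The interaction asked whether SHP2 loss acted differently with and without BCR-ABL1. It called 0 of 86 genes in limma with and without the block (0% of all genes in both), with 2 and 6 at an unadjusted p below 0.05 (2.33% and 6.98%, against 5.79% and 12.3%). The effects in the separate comparisons were therefore not shown to differ for any of these genes. The comparisons share groups of libraries, so their values are given side by side only.

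**Figure D3:**
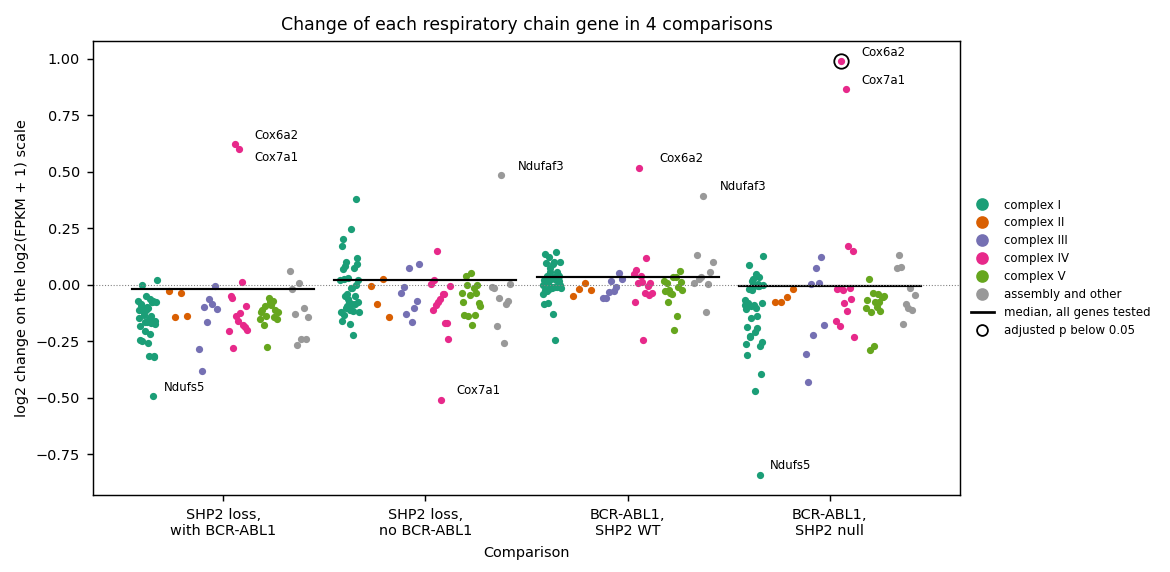
Each point is 1 of the 86 genes, coloured by complex, with its log2 change on the log2(FPKM + 1) scale (vertical axis) in 4 comparisons (horizontal axis), and black lines mark the median of all 10210 genes tested. A ring marks the only adjusted p below 0.05, Cox6a2 in SHP2-null cells with against without BCR-ABL1, and most other points crowd near 0. Cox6a2 passed the filter mainly through the null libraries with BCR-ABL1, so with that filter it could be tested only because it was high there.

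The core of complex I, the parts that bind NADH and ubiquinone and hold iron-sulfur clusters, differed between the groups by less than the test could call. Ndufs1, the largest subunit of the NADH-oxidising module, averaged 42.3 ± 2.43, 39.0 ± 3.39, 43.1 ± 3.67 and 39.1 ± 4.31 FPKM (SD, n = 4) in wild-type and null cells without BCR-ABL1 and in wild-type and null cells with it. Ndufv1, which carries the flavin that accepts electrons from NADH, averaged 38.2 ± 5.29, 38.6 ± 3.58, 40.9 ± 4.25 and 36.6 ± 5.61 FPKM in the same order, and its partner Ndufv2 51.8 FPKM over all libraries. Of the quinone-binding module, Ndufs3 averaged 53.9 FPKM. Its iron-sulfur subunits Ndufs7 and Ndufs8 were at 32.7 ± 5.39 and 72.8 ± 7.02 FPKM in the wild-type libraries with BCR-ABL1 and at 26.8 ± 8.60 and 65.3 ± 13.3 FPKM in the null ones. None of these 6 genes passed the test in any comparison. Among the supernumerary subunits, which surround the core, the smallest p values on SHP2 loss with BCR-ABL1 were those of Ndufb10 (log2 change -0.20 ± 0.08, SE) and Ndufa5 (-0.25 ± 0.12), both at a limma adjusted p of 1.00. Ndufb10 lies on chromosome 17 (24722060 to 24724478, GRCm38). Ndufab1, the acyl carrier protein of the mitochondrion, averaged 30.0 FPKM.

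Ndufs5, a small supernumerary subunit on the intermembrane-space side (chromosome 4, 123712710 to 123718202, minus strand), varied more than any other of the 86 genes, with a within-group SD of 0.79 on the log2 scale. In wild-type cells without BCR-ABL1 it read 26.4, 40.9, 79.5 and 84.0 FPKM in replicates 0 to 3, and in null cells 44.8, 50.9, 82.0 and 113 FPKM. With BCR-ABL1 it read 28.9, 40.8, 86.1 and 77.4 FPKM in the wild-type libraries, and 14.9, 32.5, 50.9 and 78.1 FPKM in the null ones. The groups overlapped, and in each of them replicates 0 and 1 lay below replicates 2 and 3. With against without BCR-ABL1 in null cells the log2 change was -0.84 ± 0.50 (SE, limma adjusted p = 0.494), and with the replicate number as a block the same change had an SE of 0.15 and an adjusted p of 0.00754. Each of the 4 null libraries with BCR-ABL1 lay below the null library of the same number without it. Leaving out 1 library at a time moved the change between -1.19 and -0.41. On SHP2 loss with BCR-ABL1 the change was -0.49 ± 0.50. Ndufb7, which also faces the intermembrane space, had a within-group SD of 0.39, and its change with BCR-ABL1 in null cells was -0.47 ± 0.25 (limma adjusted p = 0.431).

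Complex II, which also serves the citric acid cycle as succinate dehydrogenase, had small changes throughout. The flavoprotein Sdha averaged 60.9 ± 3.24, 60.8 ± 5.32, 59.0 ± 6.83 and 57.5 ± 1.84 FPKM (SD, n = 4) in wild-type and null cells without and wild-type and null cells with BCR-ABL1. The largest change of its 4 genes in any of the 4 pairwise comparisons was that of the membrane anchor Sdhd on SHP2 loss without BCR-ABL1, at -0.14 ± 0.10 (SE), and none had an unadjusted p below 0.05. For all 4 genes the 95% intervals lay within 1.5-fold in each comparison.

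In complex III the small subunits Uqcr11, Uqcrq and Uqcr10 varied most between libraries, and another small subunit, Uqcrh, varied least (within-group SD of 0.11 on the log2 scale). The Rieske iron-sulfur protein Uqcrfs1 averaged 54.4 ± 3.15, 50.7 ± 6.34, 54.0 ± 3.66 and 50.8 ± 3.20 FPKM (SD, n = 4) in the same order of groups. The core protein Uqcrc1 averaged 68.0 ± 8.79 FPKM in null cells without and 58.2 ± 7.46 FPKM in null cells with BCR-ABL1, which is -0.22 ± 0.11 on the log2 scale (SE, limma adjusted p = 0.392), and Uqcrc2 had -0.17 ± 0.09 on SHP2 loss without BCR-ABL1 (adjusted p = 0.400). Uqcr11, a small supernumerary subunit, read 60.6, 102, 84.96 and 150 FPKM in null cells with BCR-ABL1 and 107, 122, 113 and 178 FPKM in null cells without it. The ranges overlapped, and its change of -0.43 ± 0.29 did not pass. Uqcr11, Uqcrq and Uqcr10 had within-group SDs of 0.45, 0.41 and 0.37, among the 7 largest of the 86 genes. None of the 8 genes was called in any comparison, with or without the block.

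Complex IV held the one gene called without the block, Cox6a2, the heart and skeletal muscle isoform of subunit 6a (chromosome 7, 128205435 to 128206387, minus strand). In wild-type cells without BCR-ABL1 it read 0.116, 0.187, 0.268 and 0.301 FPKM in replicates 0 to 3, and in null cells 0.563, 0.678, 0.0859 and 0.164 FPKM. With BCR-ABL1 it read 0.528, 0.567, 1.22 and 0.728 FPKM in the wild-type libraries, and 0.871, 1.33, 2.50 and 2.36 FPKM in the null ones. All 4 null libraries with BCR-ABL1 lay above all 4 without it, which was the case in either direction for 7.07% of all genes, and the 4 wild-type libraries with BCR-ABL1 also lay above the 4 without it (11.7% of all genes). In null cells it rose with BCR-ABL1 from 0.373 ± 0.292 to 1.77 ± 0.793 FPKM (SD, n = 4). The change was 0.99 ± 0.19 (SE) on the log2(FPKM + 1) scale, at a limma adjusted p of 0.0200, and 2.11 with a pseudocount of 0.1. The adjusted p was 0.0139 with the block and ran from 0.0120 to 0.122 over 20 alternatives. It was 0.122 with only the groups compared in the fit and 0.0758 without null replicate 3 without BCR-ABL1. In wild-type cells the change was 0.52 ± 0.19 (adjusted p = 0.150), on SHP2 loss with BCR-ABL1 0.62 ± 0.19 (adjusted p = 0.689), and the interaction 0.47 ± 0.28 (adjusted p = 0.856). Cox6a2 passed the filter with 4 libraries, of which 3 were null with BCR-ABL1, so with that filter it could be tested only because it was high there. Without a filter its limma adjusted p in null cells was 0.0377. Its level was low throughout, at 0.0588% to 1.71% of the summed level of Cox6a1 and Cox6a2. It lies within Itgad on the opposite strand, which read at most 0.0146 FPKM.

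Cox7a1, the muscle isoform of subunit 7a (chromosome 7, 30184144 to 30186078, plus strand), was the other restricted isoform at a measurable level. Without BCR-ABL1 it read 8.87, 10.9, 11.2 and 19.8 FPKM in the wild-type libraries, and 8.18, 6.78, 8.69 and 9.45 FPKM in the null ones. With BCR-ABL1 it read 9.14, 7.56, 16.3 and 8.94 FPKM in the wild-type libraries, and 11.8, 10.8, 25.1 and 19.2 FPKM in the null ones. All 4 null libraries with BCR-ABL1 lay above all 4 null libraries without it. In that comparison 7.07% of all genes did not overlap in either direction, and 2 of the 86 genes (2.33%). The wild-type libraries spanned the levels of both null groups. In null cells the change was 0.86 ± 0.27 (SE, limma adjusted p = 0.158), and with the replicate block the adjusted p was 0.0264. Over 25 alternatives the change ran from 0.65 to 1.03 and the adjusted p from 0.0166 to 0.470, with 2 calls, both in fits with the block. The interaction was 1.11 ± 0.39 (adjusted p = 0.839, or 0.219 with the block), from a change of -0.51 ± 0.27 on SHP2 loss without and 0.60 ± 0.27 with BCR-ABL1. The share of Cox7a1 in the summed level of Cox7a1 and the common isoform Cox7a2 averaged 7.64%, 5.38%, 6.55% and 10.7% in wild-type and null cells without and wild-type and null cells with BCR-ABL1.

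**Figure D4:**
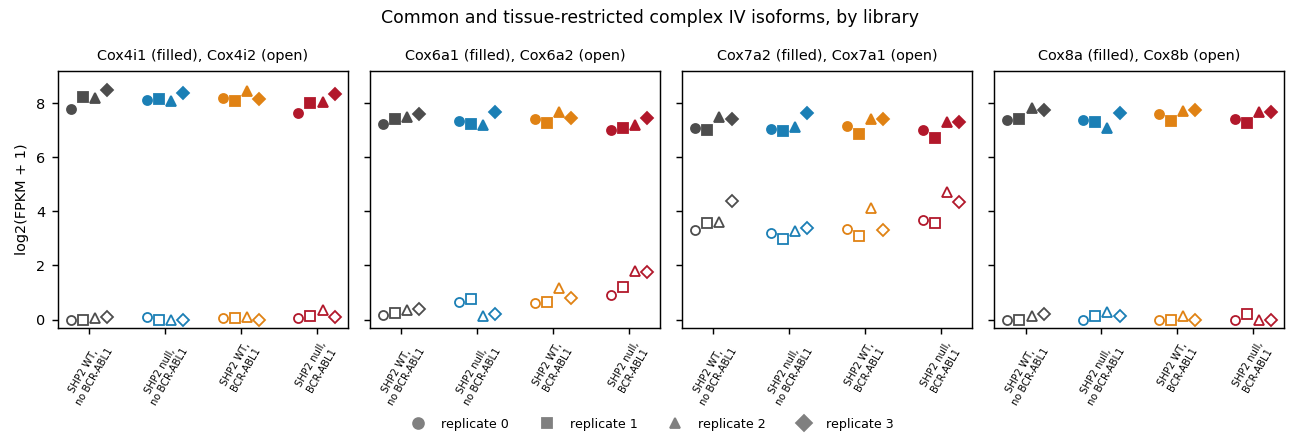
Levels on a log2(FPKM + 1) axis of 4 common complex IV isoforms (filled) and their tissue-restricted partners (open) in the 16 libraries, coloured by group and shaped by replicate number. Cox4i1, Cox6a1, Cox7a2 and Cox8a lie at 104 FPKM or more in every library, Cox7a1 lies between 6.78 and 25.1 FPKM, and Cox4i2 and Cox8b lie below 1 FPKM.

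The other restricted isoforms were near 0. Cox4i2, the lung isoform of subunit 4, was listed at 0 in 6 libraries and reached 0.285 FPKM, beside 198 to 353 FPKM for Cox4i1. Cox8b, the muscle isoform of subunit 8, was listed at 0 in 9 libraries and reached 0.205 FPKM, beside 134 to 226 FPKM for Cox8a. The testis isoforms Cox8c and Cox7b2 were listed at 0 in 16 and 15 libraries, and Cox6b2 reached 0.645 FPKM beside at least 247 FPKM of Cox6b1. Ndufa4l2 reached 0.239 FPKM, while its relative Ndufa4, once counted to complex I and now to complex IV, read 219 to 418 FPKM and was the highest gene of the complex at a mean of 314 FPKM. Where depth is unknown, a gene listed at 0 was not detectable here and is not shown to be silent.

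The common complex IV subunits read high in every library. Cox4i1 averaged 290 ± 54.9, 288 ± 27.8, 297 ± 36.1 and 260 ± 50.7 FPKM (SD, n = 4) in wild-type and null cells without and wild-type and null cells with BCR-ABL1. Cox5a and Cox5b, which sit on the matrix side, averaged 154 and 177 FPKM over all libraries. Cox6b1, Cox6c, Cox7c and Cox8a averaged 292, 256, 243 and 183 FPKM. None of these was called in any comparison. Cox6a1, the common partner of Cox6a2, had means of 175 ± 19.8 FPKM with SHP2 and 144 ± 19.96 FPKM without it in BCR-ABL1 cells, a change of -0.28 ± 0.13 (SE, limma adjusted p = 1.00). It lies 5.81 Mb from Ptpn11 on chromosome 5 (115345642 to 115348981), and its change on SHP2 loss without BCR-ABL1 was -0.09. Atp5k of complex V, 12.7 Mb from Ptpn11, changed by -0.11 on SHP2 loss with BCR-ABL1 and by 0.0007 without it. An effect of position was not tested. Cox7a2l, a factor that joins complexes III and IV into supercomplexes, had means of 165 ± 21.5 and 167 ± 23.2 FPKM in the wild-type and null groups that carry BCR-ABL1.

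**Figure D5:**
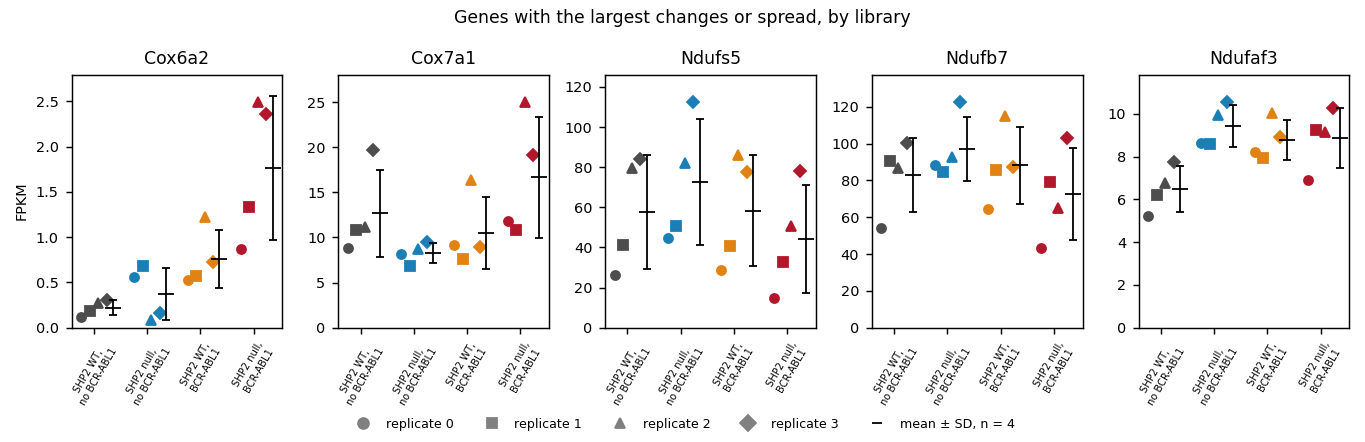
FPKM (vertical axes, starting at 0) of Cox6a2, Cox7a1, Ndufs5, Ndufb7 and Ndufaf3 in the 4 groups, with 1 symbol per library shaped by its replicate number and a black bar for the mean ± SD of 4 libraries. Cox6a2 and Cox7a1 in SHP2-null cells with BCR-ABL1 lie above all null libraries without it. In that comparison 2 of the 86 genes (2.33%) and 7.07% of all genes do not overlap. Cox6a2 passed the filter mainly through the null libraries with BCR-ABL1, so with that filter it could be tested only because it was high there. Ndufs5 spans 14.9 to 113 FPKM with overlap of all groups.

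In complex V the F1 head genes Atp5a1, Atp5b and Atp5c1, which encode the alpha, beta and gamma subunits, averaged 334, 549 and 173 FPKM. Atp5b read 526 to 593 FPKM in wild-type and 456 to 562 FPKM in null cells with BCR-ABL1, ranges that overlapped. The c ring, which turns as protons pass, is built from 1 protein encoded by 3 genes that differ in their import sequence. Atp5g2 gave 42.6% to 50.5% of their summed level, Atp5g3 30.1% to 38.6% and Atp5g1 16.8% to 23.2%, and their order was the same in all 16 libraries. The share of Atp5g1 averaged 20.8% ± 0.319 (SD, n = 4) in wild-type and 18.5% ± 1.15 in null cells with BCR-ABL1. Its level had the largest change of the complex on SHP2 loss with BCR-ABL1, -0.28 ± 0.16 (SE), and that of Atp5d, the delta subunit of the stalk, was -0.29 ± 0.14 with BCR-ABL1 in null cells, at limma adjusted p values of 1.00 and 0.377. None of the 15 genes was called in any comparison, with or without the block. For all 15 the 95% interval lay within 2-fold in each comparison.

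Among the 9 non-subunits, Ndufaf3, a factor for the early assembly of complex I (chromosome 9, 108565537 to 108567434, minus strand), had the smallest p. Without BCR-ABL1 it read 5.21, 6.21, 6.75 and 7.75 FPKM in the wild-type libraries, and 8.65, 8.56, 9.92 and 10.6 FPKM in the null ones. With BCR-ABL1 it read 8.23, 7.93, 10.05 and 8.91 FPKM in the wild-type libraries, and 6.90, 9.22, 9.15 and 10.2 FPKM in the null ones. The 4 wild-type libraries without BCR-ABL1 lay below the 4 null libraries without it (9.09% of all genes did not overlap in that comparison). They also lay below the 4 wild-type libraries with it (11.7% of all genes), while the 2 groups with BCR-ABL1 overlapped. On SHP2 loss without BCR-ABL1 the change was 0.49 ± 0.12 (SE), with a limma adjusted p of 0.0559, which the replicate block lowered to 0.00253. With BCR-ABL1 in wild-type cells it was 0.39 ± 0.12 (adjusted p = 0.0732), and the interaction was -0.48 ± 0.17 (adjusted p = 0.839). Ndufaf3 overlaps Impdh2 on the opposite strand, which read 199 to 261 FPKM, and reads of the pair may not be separable, since use of the strand in counting was not given in the sources used here. Ndufaf7, a methyltransferase needed for complex I assembly, was the only one of the 86 genes whose groups did not overlap on SHP2 loss with BCR-ABL1 (3.1% of all genes). It read 7.05 to 7.77 FPKM in wild-type and 6.23 to 6.94 FPKM in null cells, a change of -0.14 ± 0.07 (adjusted p = 1.00).

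Genes that work beside the chain were read from 5 further lists. Of 12 electron carriers and other inner membrane genes, Nnt, which couples the proton gradient to NADPH, was called higher on SHP2 loss both with and without BCR-ABL1, from 17.2 ± 0.742 to 23.6 ± 1.15 FPKM and from 14.3 ± 0.328 to 23.1 ± 2.34 FPKM (SD, n = 4, limma adjusted p = 0.00663 and 0.000107), and with BCR-ABL1 in wild-type cells (adjusted p = 0.0427). Gpd2, the glycerol phosphate dehydrogenase that feeds electrons to ubiquinone, fell with BCR-ABL1 in wild-type cells from 6.51 ± 0.430 to 5.11 ± 0.582 FPKM (adjusted p = 0.0338). On SHP2 loss without BCR-ABL1 Gpd2 went to 5.36 ± 0.357 FPKM, with a limma adjusted p of 0.139 that the block lowered to 0.0380. Cytochrome c (Cycs) and the complex III subunit cytochrome c1 (Cyc1) were called in no comparison. Of all genes tested limma called 0.313% and 1.54% on SHP2 loss with and without BCR-ABL1. With BCR-ABL1 it called 4.67% in wild-type and 1.26% in null cells, and in the interaction 0%. Of 38 assembly factors, 19 citric acid cycle genes, 76 mitochondrial ribosomal protein genes and 16 regulators of mitochondrial biogenesis (Nrf1, Tfam, Ppargc1b and others) 0 were called in any of the 5 comparisons in limma. On SHP2 loss with BCR-ABL1 11 of these 149 genes stood at an unadjusted p below 0.05 (7.38%, against 3.65% of all genes), or 29 with the block (19.5%, against 8.32%). In the other 4 comparisons 5 to 9 did (3.36% to 6.04%, against 5.79% to 19.1%), or 9 to 20 with the block (6.04% to 13.4%, against 12.3% to 28.8%). The block called Cox18 on SHP2 loss with and without BCR-ABL1, and Mrpl1 and Ndufaf3 on SHP2 loss without it (0.47% of all genes with and 5.75% without BCR-ABL1). For BCR-ABL1 in wild-type cells it called Mrpl52, Ppargc1b, Pprc1 and Ndufaf3 (12.1% of all genes), and in that comparison the replicate numbers were not read as pairing. The mitochondrial ribosome had 75 of 76 negative changes on SHP2 loss with BCR-ABL1, with a median of -0.12, the citric acid cycle 18 of 19 with a median of -0.08, and the assembly factors, which include Ndufaf1 to Ndufaf7, 34 of 38 with a median of -0.07. Over all genes tested 57.3% were negative in that comparison, with a median of -0.02. With quantile normalization the counts of the 3 lists were 70, 15 and 31.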

How the data were processed

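PolyA RNA of 16 libraries was measured by paired-end RNA-seq, per the labels' protocols. The authors deposited FPKM values for each library, with Bowtie, Cufflinks and mm10 (GRCm38) named per the submitters' processing notes. Versions, annotation and strand handling were not given in the sources used here. By symbol 92 genes were matched in a table of 23758 entries, and entries of 1 symbol were summed. FPKM hold no counts, so depth is unknown. Summed FPKM ran from 348923 to 443702 per library.

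Values were tested as log2(FPKM + 1), which understates changes of low genes, for the 10210 genes that reached 1 FPKM in at least 4 libraries. A single limma fit of 4 group means with a trended prior variance gave 5 comparisons, with two-sided tests and Benjamini-Hochberg adjustment over all genes tested (limma 3.58.1 in R 4.3.3, with pandas 2.3.3, numpy 2.4.6, matplotlib 3.10.9 and scipy 1.17.1 in Python 3.11.15). The fit was tested on simulated data. Alternatives were a pseudocount of 0.1, no filter, a mean of at least 5 FPKM, median-ratio scaling, quantile normalization, the replicate number as a block, only the groups compared, each library left out, and, added after seeing the data, a GC correction with and without the block. The members, gene lists and tests were chosen with earlier results of these data known. Gene positions, lengths and overlaps come from GENCODE vM21 (GRCm38), which matched 91 of the 92 symbols, and promoters from RefSeq.

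Named genes were core and paired subunits, those called, and in each complex the smallest p values, largest change and extreme levels, and a few were left out for length. The values of 1 member are not reported here. The protocol has 1 library of each group sequenced together as a set, and it does not tie the replicate number to these sets. Deviations from group means correlated between libraries of the same number at 0.218 to 0.783 for SHP2 loss with BCR-ABL1, 0.189 to 0.510 for SHP2 loss without it and 0.242 to 0.680 for BCR-ABL1 in null cells, so the numbers were read as pairing there. For BCR-ABL1 in wild-type cells they ran from 0.0549 to 0.643, and the numbers were not read as pairing there. That reading rests on the 0.0549 of replicate 3, since replicates 0, 1 and 2 had 0.643, 0.488 and 0.338. The block was a single term shared by all 16 libraries, so results with it rest on the numbers marking pairs in every comparison. Libraries of different numbers were not correlated as a baseline, so pairing was not tested.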

Additional observations from a re-analysis of the deposited data

Results flagged for a closer look

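In 48 groups of 4 libraries examined, 3 held a library far from the other 3, where chance flags about 1 in 20, and all 3 were the same library. In SHP2-null cells without BCR-ABL1 replicate 3 had summed levels of 2930 FPKM for complex I (the others 2241 to 2322), 1170 FPKM for complex III (869 to 908) and 2942 FPKM for complex IV (2235 to 2344). The sums for complexes II and V in that library were also the highest of their group, at 321 and 4259 FPKM, without passing the same criterion. The total FPKM of that library was 433489, against 366883 to 371867 in the other 3 libraries of the group.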

How the results depend on the processing

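The count of genes called was within 1.5 times the main count in 25 of 25 alternatives for SHP2 loss with BCR-ABL1, where it stayed 0. Leave-one-library-out gave 0 to 1 for SHP2 loss without BCR-ABL1 and for BCR-ABL1 in SHP2-null and in SHP2 wild-type cells. Ndufaf3 was called on SHP2 loss without BCR-ABL1 when wild-type replicate 3 without BCR-ABL1 (adjusted p = 0.0439) or null replicate 0 with BCR-ABL1 (0.0304) was left out, and with BCR-ABL1 in wild-type cells in the latter case (0.0468). In SHP2-null cells Cox6a2 was not called without null replicate 3 without BCR-ABL1, and it failed the filter without wild-type replicate 2 or null replicates 1, 2 or 3 with BCR-ABL1. The count there was 0 with a mean of at least 5 FPKM, which drops Cox6a2, and 0 with only the groups compared, where fewer libraries inform the spread. With the replicate block 1 gene was called on SHP2 loss without BCR-ABL1, 1 with BCR-ABL1 in wild-type cells (Ndufaf3, adjusted p = 0.00474), where the numbers were not read as pairing, and 3 in null cells. The GC correction with the block gave 1, 1 and 4, adding Ndufa4. Without the block the GC correction moved the positive changes with BCR-ABL1 in wild-type cells from 48 to 25 (median from 0.01 to -0.02). It moved the negative changes on SHP2 loss without BCR-ABL1 from 60 to 69 (median from -0.05 to -0.08). Negative changes went from 80 to 78 on SHP2 loss with BCR-ABL1 and from 66 to 65 with BCR-ABL1 in null cells. Over all genes the block raised the calls from 157 to 587, from 477 to 1231 and from 129 to 538, a mean of at least 5 FPKM lowered them to 70, 186 and 33 (and from 32 to 11 on SHP2 loss with BCR-ABL1), and only the groups compared to 34 on SHP2 loss without BCR-ABL1 and 30 in null cells. Without a filter the interaction called 3 genes, none of them a member. The block changed no other call among the 86 genes. The differences in summed level moved by less than 1 SD in 180 of 180 alternatives and changed sign in 29, none of them on SHP2 loss with BCR-ABL1. FPKM without depth limits what can be said of genes near 0.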

Other observations

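In 13 of the 86 genes (15.1%, against 6.55% of all 10210 genes tested) both libraries with replicate numbers 2 and 3 lay above both with numbers 0 and 1 in each of the 4 groups. They were Ndufa1, Ndufa2, Ndufa6, Ndufb3, Ndufb6, Ndufs5 and Ndufs6 of complex I, Uqcr10 of complex III, Cox5b, Cox7a2 and Ndufa4 of complex IV, and Atp5e and Atp5l of complex V. The opposite order held in 1 of the 86 genes and in 742 of all genes. This split was chosen after the values of Ndufs5 were seen.

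The respiratory chain genes have short transcripts, with a median of 908 nt against 2909 nt over tested genes. Among 74 of them with a mean of at least 20 FPKM the median within-group SD was 0.18 on the log2 scale, against 0.15 for 2848 genes at that level. Across those 74 genes the SD went with transcript length at a Spearman correlation of -0.28 and with GC content at 0.12. These are correlations across genes that share the same libraries.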
